A study of Mus musculus with 16 samples.

Results

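The supraspinatus tendon of the shoulder was compared with the patellar tendon of the knee, the more proximal tendon of the forelimb and of the hindlimb in a series that also holds a forepaw flexor tendon and the Achilles tendon. The 8 libraries labelled Supraspinatus 1 to 4 and Patellar 1 to 4, of 16 in all, were taken by their labels and fitted without the other 8. All came from C57BL/6J mice, an inbred laboratory strain, with no treatment or genetic change named, so tendon is the one difference the labels give. The age and sex of the mice, how the tendons were trimmed and any pooling of animals were details not given in the sources used here. The supraspinatus tendon is part of the rotator cuff and runs from a muscle on the shoulder blade to the head of the humerus. The patellar tendon runs from the kneecap to the shin bone beside the fat pad of the knee.

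Tendon is a tissue of parallel collagen I fibrils with few cells. Its cells express the transcription factors Scx and Mkx and the membrane protein Tnmd, and they keep a record of position along the body in Hox and T-box genes. Tbx5 is known as the forelimb factor and Pitx1 and Tbx4 as hindlimb factors, and the 5' genes of the Hoxc cluster are active at the level of the hindlimb. A tendon meets its muscle at a junction, so a dissected tendon can carry muscle fibres and satellite cells, and also fat, nerve, vessel and blood.

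Total counts ranged from 86898889 to 107805065 in Supraspinatus and from 34559686 to 63235636 in Patellar. Genes with rRNA-like sequence took 2.93 to 3.59% of the counts in Supraspinatus and 13.2 to 42.0% in Patellar, without overlap (exact two-sided permutation test, p = 0.0286, the smallest value 4 against 4 allows, and 0.0571 without any 1 Supraspinatus library). Patellar 3 had the fewest counts and genes detected and lay away from Patellar 1, 2 and 4 on the second principal component. Mean Pearson correlation of log2 levels was 0.984 within Supraspinatus, 0.926 within Patellar and 0.847 between the tendons. Scx, Mkx and Tnmd were detected in all 8 libraries, as the tissue label requires.

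Of 20330 genes tested, 9260 passed an adjusted p of 0.05 (45.5%) in edgeR's quasi-likelihood test with Benjamini-Hochberg adjustment. Of these, 4711 were higher in Supraspinatus (23.2% of the genes tested) and 4549 were lower (22.4%). The 4 values of each tendon did not overlap for 9221 genes (45.4%), and the median log2 fold change of all genes tested was -0.06. All log2 fold changes below are Supraspinatus minus Patellar, and levels are in CPM, a gene's counts relative to the total of its library, with the 8 libraries scaled by the trimmed mean of M-values. When libraries were scaled instead by matrix genes (the fibrillar collagen, small leucine-rich proteoglycan and elastic fibre lists), the median of all genes moved by 0.71 on the log2 scale and 7661 genes were higher and 1704 lower. Calls of lower genes that this scaling ended are named beside them. Without Patellar 3, 10658 of 21581 genes passed. With the level of muscle markers as a covariate, which itself separated the tendons, 2027 genes passed. Of 116 genes named in the text that passed without it, 51 then kept their direction but did not pass, and 8 changed sign without passing (Bmper, Col2a1, Cox7a1, Cox8b, Eln, Il33, Myh2 and Sfrp2).

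Supraspinatus held far more muscle RNA than Patellar. The 82 genes of the muscle fibre list took 22.8, 21.9, 21.7 and 21.02% of counts in Supraspinatus 1 to 4, and 1.62, 0.173, 0.197 and 0.558% in Patellar 1 to 4. The mean share was 34.3 times higher in Supraspinatus, and 70.6 times higher without Patellar 1. Adipocyte markers went the other way, with 0.273% ± 0.0887 (SD, n = 4) of counts in Supraspinatus and 2.67% ± 1.29 in Patellar, 9.79 times higher in the latter. Red blood cell markers were 10.1 times, mast cell markers 9.29 times, neutrophil markers 7.57 times and bone markers 3.39 times higher in Patellar by mean share. The neutrophil value was 4.70 times without Patellar 3. Satellite cell and myogenic markers were 14.4 times higher in Supraspinatus, and 11.85 times without Myf6, which is also in the muscle list. Chodl made 31.4% of their share in Supraspinatus. Pericyte and smooth muscle markers were 3.30 times higher there, but Des, a muscle fibre gene that is also in the muscle list, made 80.6% of that share. Without Des the other 15 genes took 0.0874% ± 0.0134 of counts in Supraspinatus and 0.123% ± 0.0245 in Patellar (exact permutation test, p = 0.0571). Brown fat markers were 6.65 times higher in Supraspinatus, and 10.83 times without Patellar 1. Cox8b, described below as a muscle form, made 46.7% of their share in Supraspinatus. Cox7a1, also described below as a muscle form, averaged 356.6 CPM there, beside 359.8 CPM for Cox8b. Of the 9 brown fat genes tested 4 were higher and 4 lower. Lymphocyte markers were 2.48 times higher in Patellar, but Ptprc alone made 70.9% of their share in Supraspinatus and 71.8% in Patellar. Of 8 lymphocyte genes tested 4 were lower in Supraspinatus, 3 did not pass and 1 was higher. The higher one was Cd3e (log2 fold change 3.71, edgeR adjusted p = 0.00646). All these lists made up the 10 of 16 cell type lists that passed (exact two-sided permutation tests, p = 0.0286 each, adjusted p = 0.0457 over the 16). Without any 1 Supraspinatus library no list passed, since the smallest adjusted p was then 0.114. With genes of the muscle list left out of the other lists, 9 lists kept p = 0.0286 in the exact permutation test and none passed after adjustment (adjusted p = 0.0508). The shares of macrophage, endothelial, synovial, epidermal, Schwann cell and general fibroblast markers did not pass. In bulk RNA, fewer cells of a type and less RNA per cell cannot be told apart. The part of these shares in the gene differences below was not tested. The muscle covariate itself separated the tendons, so that fit cannot tell muscle content from tendon.

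Genes of limb position separated the tendons, some of them almost completely. All 5 tested genes of the hindlimb list were lower in Supraspinatus, against 22.4% of all genes tested. In the forelimb list 1 of 5 was higher and 4 were lower. Tbx5, the forelimb T-box factor, measured 17, 17.1, 17.9 and 21.7 CPM in Supraspinatus and 8.21, 6.01, 7.87 and 7.35 CPM in Patellar. The groups did not overlap, and Tbx5 was present in both tendons (log2 fold change 1.33 ± 0.17 SE, adjusted p = 0.000259). Pitx1, which drives hindlimb identity, measured 11.8, 13.0, 8.83 and 11.3 CPM in Supraspinatus against 73.2, 41.6, 47.4 and 65.4 CPM in Patellar. It was thus also measured in every forelimb library, at a lower level (-2.34 ± 0.21, adjusted p = 4.32e-05). Tbx4, its partner in the hindlimb, measured 4.75, 4.02, 3.47 and 3.23 CPM in Supraspinatus against 18.6, 19.1, 8.68 and 24.6 CPM in Patellar. Patellar 3 was the lowest of its group but above every Supraspinatus library (-2.20 ± 0.31, adjusted p = 0.000449). The log2 ratio of Tbx5 to Tbx4 within a library, which no scaling between libraries can move, averaged 2.26 ± 0.39 (SD, n = 4) in Supraspinatus and -1.18 ± 0.74 in Patellar (exact permutation test, p = 0.0286, adjusted p = 0.0476 over 10 ratios, 0.0952 without a Patellar library).

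The Hoxc genes lie in order on mouse chromosome 15 (GRCm38, plus strand), with Hoxc11 starting at 102954427, Hoxc10 at 102966796, Hoxc9 at 102976439, Hoxc8 at 102990607, Hoxc6 at 102998257 and Hoxc4 at 103018934. Their differences followed this order in 2 blocks. Hoxc8 measured 0.0683, 0.144, 0.221 and 0.103 CPM in Supraspinatus and 27.8, 25.6, 37.1 and 34.0 CPM in Patellar. Hoxc9 measured 0.0488, 0.108, 0.232 and 0.0103 CPM against 31.0, 14.9, 31.6 and 35.9 CPM. Hoxc10 measured 0.0683, 0, 0.276 and 0.0310 CPM against 32.2, 21.9, 18.6 and 26.5 CPM. For all 3 genes the Supraspinatus libraries were near 0, with log2 fold changes of -7.85 ± 0.36, -8.15 ± 0.66 and -8.02 ± 0.76 (adjusted p = 5.08e-06, 2.45e-05 and 5.45e-05). Hoxc11 had no count in any Supraspinatus library and 0.224 to 0.302 CPM in Patellar, at least 34.1-fold higher there against a floor of 3 counts over the group.

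The 3' genes of the cluster were measured in both tendons with smaller gaps. Hoxc6 measured 4.97, 4.32, 4.88 and 3.95 CPM in Supraspinatus against 15.3, 13.8, 17.96 and 13.0 CPM in Patellar (-1.73 ± 0.18, adjusted p = 9.57e-05). Hoxc4 averaged 1.69 ± 0.279 CPM against 5.83 ± 1.83 CPM (-1.78 ± 0.31, adjusted p = 0.00143). Hoxc5 passed as lower (-0.79 ± 0.25, adjusted p = 0.0265), but its groups overlapped, and its annotated interval spans its neighbours, so its counts are uncertain. Its call was lost without Supraspinatus 1, 2 or 3, or Patellar 3 or 4 (adjusted p 0.0567 to 0.0895), and under scaling by matrix genes.

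**Figure D1:**
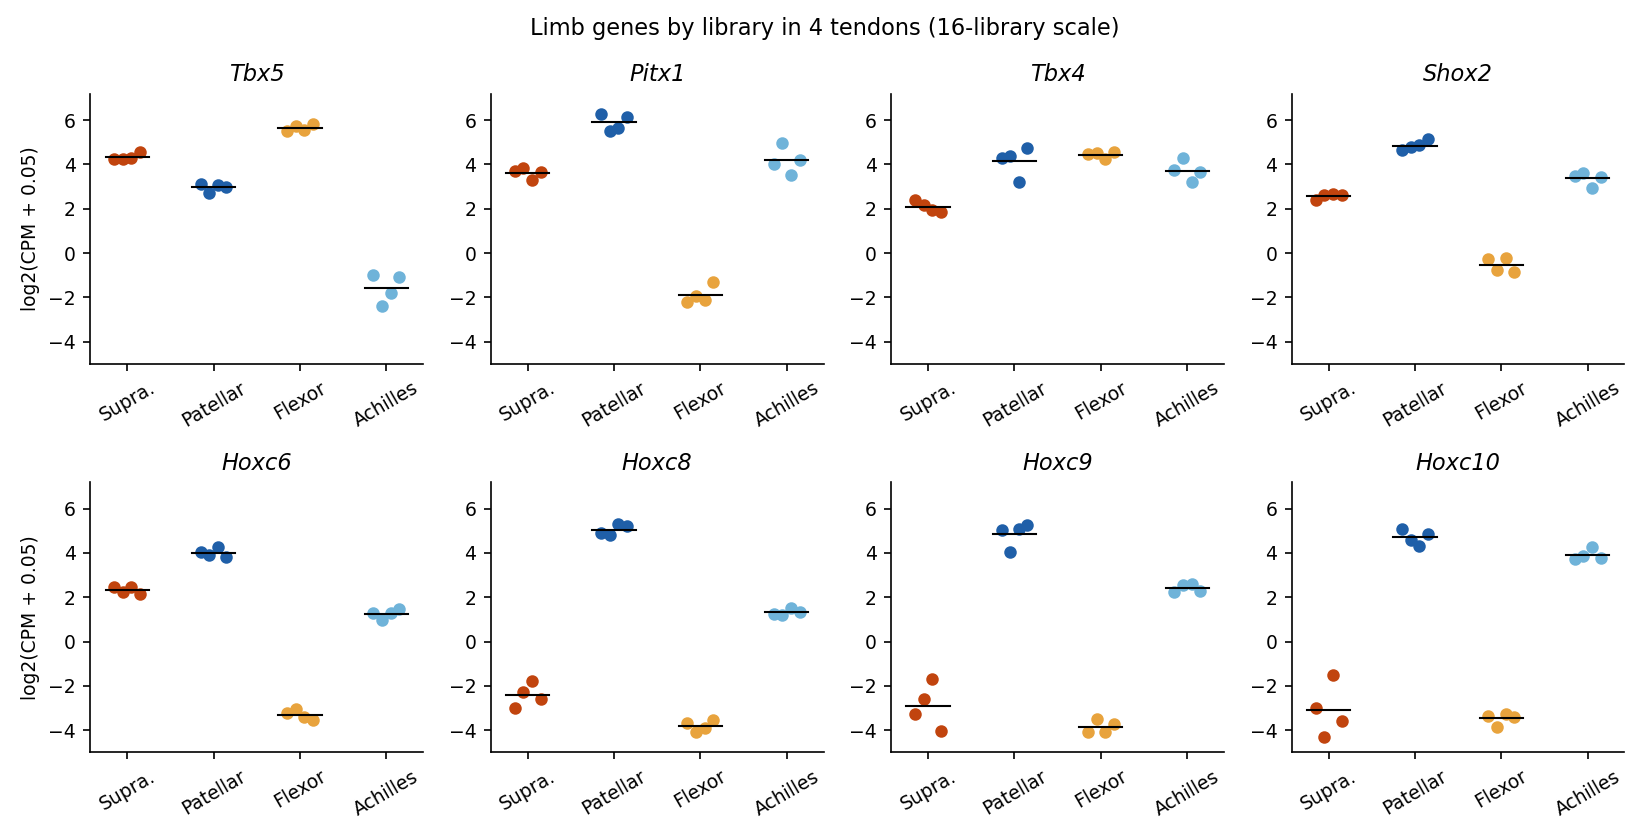
Level of 8 limb genes in each library of the 4 tendons, as log2 of CPM plus 0.05 on a scale set over all 16 libraries. Points are libraries and lines are the means of 4. Hoxc8, Hoxc9 and Hoxc10 are near the bottom of the axis in both forelimb tendons, while Tbx5 and Pitx1 are measured in both proximal tendons.

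Among 12 regulators of the proximal limb 2 were higher, 5 were lower and 5 did not pass, with a median log2 fold change of -0.09. The share called was 58.3%, against 45.5% of all genes. Shox2, a homeobox gene of the proximal limb segment, measured 4.76, 5.55, 5.68 and 5.54 CPM in Supraspinatus against 23.3, 25.1, 27.5 and 32.4 CPM in Patellar (-2.33 ± 0.16, adjusted p = 1.11e-05). Emx2, a homeobox gene needed for the shoulder blade, averaged 2.84 ± 0.562 against 13.4 ± 6.29 CPM (-2.24 ± 0.35, adjusted p = 0.000829). Hoxa9 averaged 16.97 ± 1.04 against 47.4 ± 9.50 CPM (-1.48 ± 0.16, adjusted p = 0.000112). All 3 were lower in the shoulder tendon without overlap. Hoxd9 was higher there (0.85 ± 0.26, adjusted p = 0.0244), although without Supraspinatus 3 its adjusted p was 0.0648. The Hox cofactors Meis1 and Meis2 did not pass (adjusted p = 0.107 and 0.437). Of 8 regulators of the more distal limb 4 were lower and 4 did not pass, so 50% were called, near the share of all genes. Lhx9, a LIM homeobox gene of the limb bud, measured 2.36, 2.01, 4.42 and 1.44 CPM against 15.03, 11.9, 13.6 and 23.7 CPM (-2.65 ± 0.38, adjusted p = 0.000509). Hoxa10 averaged 22.5 ± 1.07 against 44.6 ± 12.1 CPM (-0.99 ± 0.19, adjusted p = 0.00252), a call that ended under scaling by matrix genes (adjusted p = 0.449).

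Fast fibre isoforms were higher in Supraspinatus throughout, while most but not all slow fibre isoforms had lower values there. All 15 fast fibre isoforms were higher in Supraspinatus, with a median log2 fold change of 6.14, against 23.2% of all genes. Of 13 slow fibre isoforms 1 was higher, 7 were lower and 5 did not pass (median -2.60, 61.5% called against 45.5% of all genes). The higher one was Pln (1.52 ± 0.51, adjusted p = 0.0348). Myoz2, Casq2 and Atp2a2 also lay above 0 (1.54, 1.02 and 0.44) without passing. Myh4, the myosin heavy chain of the fastest fibres, measured 26530, 26340, 26340 and 22330 CPM in Supraspinatus and 219.0, 27.4, 69.7 and 98.3 CPM in Patellar (7.94 ± 0.71, adjusted p = 3.95e-05). Atp2a1, the calcium pump of fast fibres, averaged 27940 ± 901.2 against 251.1 ± 213 CPM (6.80 ± 0.76, adjusted p = 0.000135). Actn3, the fast fibre actinin of the Z disc, averaged 6829 ± 375 against 27.1 ± 24.9 CPM (7.98 ± 0.77, adjusted p = 5.61e-05). Each of these was lowest in Patellar 2 and highest in Patellar 1 within its group.

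Myh7, the slow myosin heavy chain, measured 7.83, 6.08, 8.08 and 5.52 CPM in Supraspinatus and 200.6, 10.4, 22.1 and 24.4 CPM in Patellar. The groups did not overlap, and Patellar 1 stood far above the rest (-3.23 ± 0.86, adjusted p = 0.0127). Tnnc1, the slow troponin C, showed the same library at the top, with 222.6 CPM in Patellar 1 and 5.72, 11.6 and 10.2 CPM in Patellar 2 to 4. Supraspinatus had 2.39 to 3.56 CPM (-4.38 ± 1.17, adjusted p = 0.0130). Both calls ended under limma with voom (adjusted p = 0.0578 and 0.0914), with no filter on low counts (0.0701 and 0.0699) and under scaling by matrix genes (0.0822 and 0.0599). Under that scaling 1 of the slow isoforms was lower. The lower count was 4 without Patellar 1, and also without Supraspinatus 2, 3 or 4. The log2 ratio of Myh7 to the summed fast chains Myh1, Myh2 and Myh4, which is free of the scaling, was -12.1, -12.4, -12.1 and -12.4 in Supraspinatus and -1.73, -2.61, -2.53 and -3.79 in Patellar. All 4 Patellar libraries thus had a larger slow part of their myosin counts (exact permutation test, p = 0.0286, adjusted p = 0.0476, and 0.0952 without a Patellar library).

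**Figure D2:**
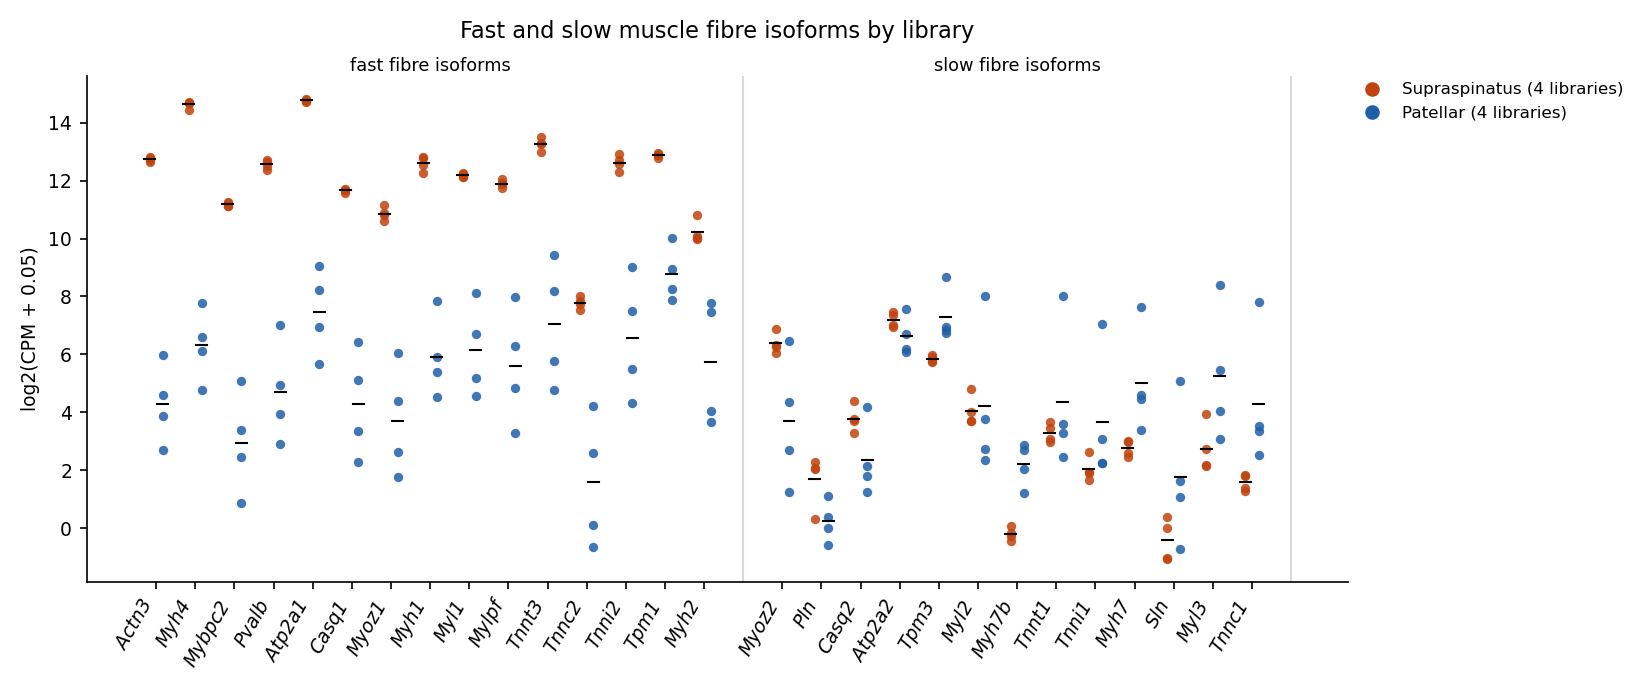
Level of 15 fast and 13 slow muscle fibre isoforms in each of the 8 libraries, as log2 of CPM plus 0.05. Points are libraries and lines are the means of 4. Every fast isoform is higher in all 4 Supraspinatus libraries, and 1 Patellar library lies above the other 3 for most slow isoforms.

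Promoter sequence is shown for 2 fast and 2 slow isoforms, because these genes differed in opposite directions. Each run is the 250 bases before a start of the gene in RefSeq (GRCm38.p6), read 5' to 3' on the strand of the gene. Myh7 has 2 starts listed, and the one nearest its annotated gene start is shown. The percentages below use the first start listed for each gene. Capitals mark CAGCTG, an E-box bound by myogenic factors, and CATTCC or its reverse complement GGAATG, the site of TEAD factors.
Myh4: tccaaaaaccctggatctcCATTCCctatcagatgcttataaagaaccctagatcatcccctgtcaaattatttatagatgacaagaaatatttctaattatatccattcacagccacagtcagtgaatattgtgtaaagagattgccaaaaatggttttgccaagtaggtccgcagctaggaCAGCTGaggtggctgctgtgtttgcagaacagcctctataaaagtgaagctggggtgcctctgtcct
Atp2a1: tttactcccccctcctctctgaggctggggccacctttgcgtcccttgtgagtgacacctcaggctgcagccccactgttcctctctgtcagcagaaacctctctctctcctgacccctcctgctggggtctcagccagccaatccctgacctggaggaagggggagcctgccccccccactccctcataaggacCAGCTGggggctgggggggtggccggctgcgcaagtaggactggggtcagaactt
Myh7: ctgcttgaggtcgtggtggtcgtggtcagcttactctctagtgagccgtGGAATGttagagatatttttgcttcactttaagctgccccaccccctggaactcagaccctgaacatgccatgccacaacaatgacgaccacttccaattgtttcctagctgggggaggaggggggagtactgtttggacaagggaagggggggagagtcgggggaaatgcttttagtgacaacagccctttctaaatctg
Tnnc1: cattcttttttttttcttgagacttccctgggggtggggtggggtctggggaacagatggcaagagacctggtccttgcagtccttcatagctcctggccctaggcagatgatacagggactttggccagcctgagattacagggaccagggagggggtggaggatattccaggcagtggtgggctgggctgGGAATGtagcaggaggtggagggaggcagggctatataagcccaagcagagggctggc
Myh4 lies on the plus strand at chr11:67237562-67237811 for this window and Atp2a1 on the minus strand at chr7:126463074-126463323. Myh7 lies on the minus strand at chr14:54994627-54994876 and Tnnc1 on the plus strand at chr14:31208062-31208311. Both strands were searched, and the motifs do not overlap each other. Of the 15 fast isoforms 11 had a promoter in the table, and 45.5% of these held CAGCTG and 45.5% CATTCC. Of 13 slow isoforms 11 had one, and 27.3% held each motif. Among all 27025 promoters, 12.8% held CAGCTG and 12.6% CATTCC. A match describes letters in this window and no binding was measured.

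Satellite cell and myogenic genes were higher in Supraspinatus for 10 of 14 tested, with 1 lower and a median of 4.72. The share called was 78.6%, against 45.5% of all genes. Myod1, a master regulator of muscle cells, measured 43.5, 32.5, 33.1 and 38.0 CPM in Supraspinatus and 0.194, 0.0360, 0.164 and 0.149 CPM in Patellar (8.21 ± 0.39, adjusted p = 5.08e-06). Mstn, a secreted brake on muscle growth, averaged 90.0 ± 9.36 against 0.672 ± 0.289 CPM (7.07 ± 0.31, adjusted p = 5.08e-06). Cdh15, the cadherin of satellite cells, averaged 27.8 ± 1.75 against 0.132 ± 0.136 CPM (7.80 ± 0.56, adjusted p = 1.41e-05). These myogenic genes were close to 0 in all 4 Patellar libraries. Among 15 genes of the neuromuscular junction 8 were higher and 1 was lower, 60% called against 45.5% of all genes. Dok7, an organiser of the junction, averaged 33.7 ± 7.31 against 2.38 ± 0.490 CPM (3.83 ± 0.23, adjusted p = 7.65e-06), and Ache, which breaks down acetylcholine, averaged 26.3 ± 14.8 against 0.732 ± 0.537 CPM (5.16 ± 0.58, adjusted p = 0.000136).

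Genes of energy metabolism were mostly higher in Supraspinatus. Of 46 oxidative phosphorylation genes 43 were higher and 2 lower in Supraspinatus (median 1.79). Of 25 glycolysis genes 17 were higher and 8 did not pass (median 2.49). The shares called were 97.8% and 68%, against 45.5% of all genes. Sdha, a subunit of succinate dehydrogenase, averaged 940.3 ± 45.2 against 220.2 ± 18.6 CPM (2.09 ± 0.14, adjusted p = 1.09e-05). Tpi1, a glycolytic isomerase, averaged 1308 ± 83.1 against 173.9 ± 30.9 CPM (2.91 ± 0.18, adjusted p = 7.69e-06). The exceptions were Cox8a and Cox6a1, the subunits of cytochrome oxidase known from tissues other than muscle. Cox8a measured 56.8, 75.8, 59.8 and 58.5 CPM in Supraspinatus and 213.0, 200.1, 230.4 and 181.6 CPM in Patellar (-1.72 ± 0.14, adjusted p = 2.56e-05). Cox6a1 averaged 89.8 ± 19.1 against 247.6 ± 28.8 CPM (-1.46 ± 0.17, adjusted p = 0.000187) and lost its call under scaling by matrix genes (adjusted p = 0.0743). The muscle forms Cox7a1 and Cox8b were higher in Supraspinatus (4.19 ± 0.87 and 2.75 ± 0.64, adjusted p = 0.00371 and 0.00656).

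Tendon cell genes were mixed. Of 20 tendon factors and markers 3 were higher in Supraspinatus, 7 were lower and 10 did not pass, with a median of -0.40, so 50% passed against 45.5% of all genes. Under scaling by matrix genes the count was 5 higher and 2 lower, and without single libraries the lower count ranged down to 1 (without Supraspinatus 1 or 3). Mkx, a homeobox factor of mature tendon, measured 29.6, 17.4, 25.6 and 42.3 CPM in Supraspinatus and 104.4, 60.8, 80.1 and 100.5 CPM in Patellar. The groups did not overlap (-1.59 ± 0.28, adjusted p = 0.00138). Scx, the factor that marks tendon cells from the embryo on, measured 40.3, 32.4, 46.7 and 84.9 CPM against 120.7, 79.4, 83.7 and 98.7 CPM. Supraspinatus 4 lay within the Patellar range, and the call (-0.90 ± 0.29, adjusted p = 0.0275) ended without Supraspinatus 1, 2 or 3 or Patellar 1 or 4 (adjusted p 0.0659 to 0.0861) and under scaling by matrix genes (0.334).

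Tnmd, a membrane protein of mature tendon cells, measured 157.4, 70.4, 106.9 and 235.6 CPM in Supraspinatus and 374.2, 329.2, 202.0 and 286.3 CPM in Patellar. The ranges overlapped, and the call (-1.06 ± 0.35, adjusted p = 0.0317) was lost without any of 6 single libraries (adjusted p 0.0629 to 0.0993), with no filter (0.0660) and under scaling by matrix genes (0.196). Cilp, a matrix protein of cartilage and tendon, was higher in Supraspinatus, with 1723, 1098, 1864 and 1173 CPM against 685.3, 730.2, 418.7 and 403.2 CPM (1.39 ± 0.28, adjusted p = 0.00306). Egr1, an early response factor that acts on collagen genes in tendon, was also higher, at 124.8 ± 11.5 against 63.9 ± 21.3 CPM (0.97 ± 0.21, adjusted p = 0.00492). Thbs4, Fmod, Chad, Comp and Kera, abundant matrix proteins of tendon, did not pass (adjusted p 0.216 to 0.981). Supraspinatus 4 had the highest level within its group for Scx, Mkx, Tnmd and Fmod, and Supraspinatus 2 the lowest.

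Fibrillar collagens were lower in Supraspinatus for 8 of 11 genes, higher for 1, with a median of -1.71. The share called was 81.8%, against 45.5% of all genes. Col1a1, the main chain of tendon fibrils, measured 3793, 1698, 3610 and 9210 CPM in Supraspinatus and 19160, 17350, 11140 and 12410 CPM in Patellar (-1.71 ± 0.49, adjusted p = 0.0171). The groups did not overlap, but the adjusted p was 0.0546 without Supraspinatus 1 and 0.0581 without Supraspinatus 3. The lower count of the list was then 4 and 5. Col11a2, a chain of the thin collagen XI fibrils of cartilage and tendon, measured 34.4, 7.45, 10.8 and 62.9 CPM against 245.0, 197.2, 271.3 and 299.1 CPM (-3.13 ± 0.62, adjusted p = 0.00273). Col11a1 averaged 75.3 ± 55.6 against 308.4 ± 103.7 CPM (-2.04 ± 0.49, adjusted p = 0.00819). Col24a1, a minor fibrillar collagen, was the exception, at 5.96 ± 2.21 against 1.38 ± 0.564 CPM (2.11 ± 0.40, adjusted p = 0.00240). Among 16 fibril-associated and network collagens 1 was higher and 7 were lower, 50% called against 45.5% of all genes. The higher one was Col22a1, known from the junction of muscle and tendon, with 183.4, 94.5, 150.3 and 166.4 CPM in Supraspinatus and 13.7, 1.75, 0.688 and 3.51 CPM in Patellar (4.92 ± 0.82, adjusted p = 0.00113).

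**Figure D3:**
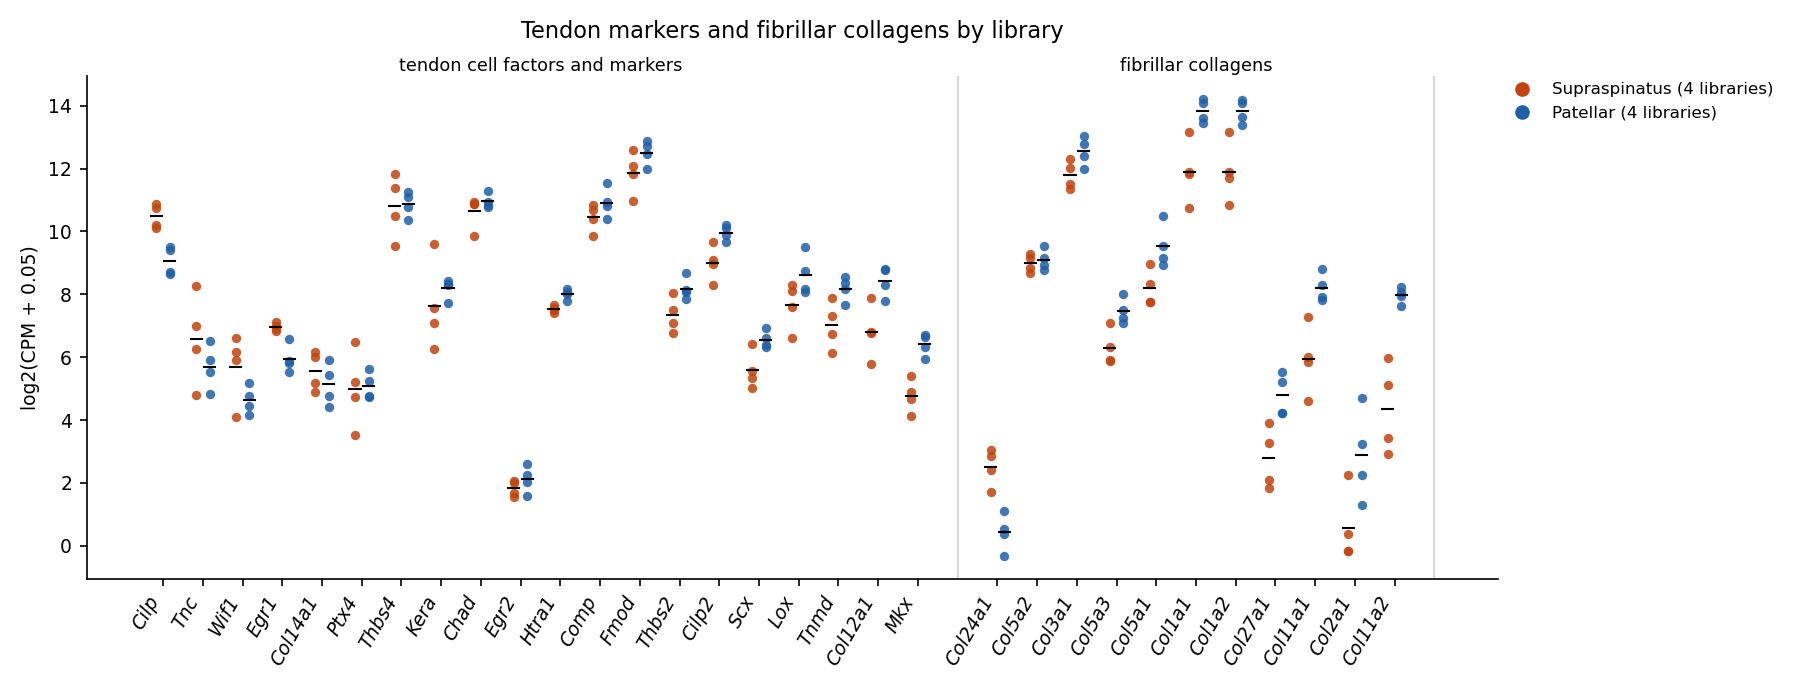
Level of 20 tendon factors and markers and 11 fibrillar collagens in each of the 8 libraries, as log2 of CPM plus 0.05. Points are libraries and lines are the means of 4. The Supraspinatus libraries spread more widely than the Patellar ones for Col1a1 and Col1a2, and Col24a1 is the only collagen shown that passed as higher in Supraspinatus.

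Set against Col1a1 within each library, Col3a1, Thbs4, Comp and Tnmd took a larger part in Supraspinatus. The log2 ratio of Col3a1 to Col1a1 was -0.54, 0.76, 0.19 and -0.88 in Supraspinatus and -1.18, -1.31, -1.45 and -1.20 in Patellar. That of Thbs4 to Col1a1 averaged -1.09 ± 0.44 against -2.96 ± 0.34 (SD, n = 4), that of Comp to Col1a1 -1.46 ± 0.63 against -2.93 ± 0.21 and that of Tnmd to Col1a1 -4.89 ± 0.35 against -5.66 ± 0.15. None of these 4 overlapped between the tendons (exact permutation tests, p = 0.0286 each, adjusted p = 0.0476 over 10 ratios). All 4 have Col1a1 as denominator, which was itself lower in Supraspinatus, so they are not separate results. With 1 Patellar library left out no ratio passed (smallest adjusted p 0.0952). The ratios of Prg4, Col2a1 and Eln to Col1a1 and of Fmod to Dcn overlapped (adjusted p 0.163 to 0.971).

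Other matrix families were mixed. Of 17 small leucine-rich proteoglycans 2 were higher and 3 lower, 29.4% called and so under the 45.5% of all genes. Aspn, which binds collagen and limits its mineral, measured 360.5, 637.6, 400.3 and 417.2 CPM in Supraspinatus and 38.6, 118.4, 88.8 and 68.4 CPM in Patellar (2.53 ± 0.34, adjusted p = 0.000347). Ogn, a relative that regulates fibril growth, went the other way, at 118.6 ± 20.2 against 455.3 ± 123.5 CPM (-1.94 ± 0.23, adjusted p = 0.000198). Of 21 matricellular proteins 3 were higher and 6 lower, 42.9% called and so near the share of all genes. Nov, a CCN family protein, averaged 341.4 ± 123.7 against 61.4 ± 15.7 CPM (2.48 ± 0.29, adjusted p = 0.000155), while its relative Wisp2 averaged 9.75 ± 2.90 against 83.7 ± 39.9 CPM (-3.10 ± 0.35, adjusted p = 0.000131). Within the CCN family, Cyr61 was also higher in Supraspinatus (1.04 ± 0.22, adjusted p = 0.00412). Sparc, a collagen chaperone, was lower (-1.49 ± 0.29, adjusted p = 0.00259), except under scaling by matrix genes, where it did not pass (0.0812).

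Matrix proteases and their inhibitors were higher for 5 and lower for 12 of 30, with a median of -0.69. This made 56.7% called, against 45.5% of all genes. Adamts20 and Adamts15 showed opposite directions within 1 family of proteoglycan-cutting enzymes. Adamts20 measured 44.4, 18.2, 34.0 and 42.8 CPM in Supraspinatus and 2.48, 2.69, 3.24 and 1.54 CPM in Patellar (3.81 ± 0.34, adjusted p = 3.77e-05). Adamts15 averaged 3.01 ± 1.38 against 21.9 ± 9.32 CPM (-2.86 ± 0.41, adjusted p = 0.000491), and Adamts5, an aggrecanase, 17.9 ± 2.02 against 91.5 ± 20.9 CPM (-2.36 ± 0.18, adjusted p = 2.06e-05). Elastic fibre genes were split 5 higher, 6 lower and 6 not passing (64.7% called). Fbln2 and Ltbp4 were higher in Supraspinatus (1.28 ± 0.16 and 0.98 ± 0.17, adjusted p = 0.000240 and 0.00130), and Mfap2 and Eln, the microfibril and core components, were lower (-1.96 ± 0.41 and -1.80 ± 0.44, adjusted p = 0.00381 and 0.00815).

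Fat genes were lower in Supraspinatus almost throughout. Of 24 adipocyte markers 23 were lower and 1 higher, with a median of -3.76, so 100% were called against 45.5% of all genes. Lep, the hormone leptin, measured 2.17, 3.33, 1.44 and 1.81 CPM in Supraspinatus and 77.8, 233.0, 248.8 and 195.4 CPM in Patellar (-6.43 ± 0.46, adjusted p = 1.32e-05). Scd1, a desaturase of fat synthesis, averaged 169.3 ± 94.1 against 4477 ± 1604 CPM (-4.73 ± 0.48, adjusted p = 7.34e-05). The single higher marker was Slc2a4, the insulin-responsive glucose transporter that muscle fibres share, at 647.1 ± 120 against 66.6 ± 23.3 CPM (3.28 ± 0.28, adjusted p = 3.15e-05). Among 9 brown fat genes 4 were higher and 4 lower (88.9% called). Those higher included the respiratory genes Cox7a1 and Cox8b and the coactivator Ppargc1a (2.23 ± 0.26, adjusted p = 0.000162), which oxidative muscle also uses. Those lower included the fat regulator Prdm16 (-1.43 ± 0.23, adjusted p = 0.000826), whose call ended under scaling by matrix genes.

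Nerve, mast cell, blood and bone markers were also lower in the shoulder tendon. Of 18 Schwann cell and myelin genes 11 were lower and 1 higher (median -1.70, 66.7% called against 45.5% of all genes). The higher one was Erbb3, a neuregulin receptor (2.95 ± 0.55, adjusted p = 0.00196). Of 8 mast cell genes 5 were lower (62.5% called, against 45.5% of all genes). The protease Mcpt4 measured 0.0781, 1.24, 0.144 and 0.259 CPM against 5.66, 9.58, 7.87 and 6.47 CPM (-4.11 ± 0.79, adjusted p = 0.00249), with Supraspinatus 2 the highest of its group. All 7 red blood cell genes were lower (median -3.36), against 22.4% of all genes, with Patellar 3 the highest for the haemoglobin chains. Hbb-bs measured 30.1, 31.2, 51.0 and 43.6 CPM in Supraspinatus and 345.9, 206.9, 848.2 and 193.6 CPM in Patellar (-3.36 ± 0.49, adjusted p = 0.000563). Haemoglobin genes have near-identical copies, so their single counts are uncertain.

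Of 11 bone genes 3 were higher and 6 lower, 81.8% called against 45.5% of all genes. Ibsp, a protein of mineralising bone matrix, measured 0.342, 0.288, 0.608 and 0.476 CPM in Supraspinatus and 35.6, 25.1, 22.2 and 12.3 CPM in Patellar, without overlap (-5.79 ± 0.41, adjusted p = 1.29e-05). Pth1r, the parathyroid hormone receptor, averaged 16.1 ± 4.10 against 53.3 ± 5.71 CPM (-1.73 ± 0.19, adjusted p = 0.000109). Alpl, the phosphatase of mineralisation, was higher in Supraspinatus (1.57 ± 0.44, adjusted p = 0.0162). Cartilage genes were lower for 7 and higher for 2 of 18, 50% called and so near the 45.5% of all genes. The higher ones were Epyc, a proteoglycan, and Sox6, a factor also found in fast muscle (2.10 ± 0.22, adjusted p = 8.53e-05). Of 12 synovial genes 4 were higher and 3 lower, 58.3% called. Prg4, the lubricant lubricin, averaged 800.6 ± 161 against 1398 ± 360 CPM (-0.81 ± 0.23, adjusted p = 0.0170), and its call ended without Supraspinatus 1 or 4 (adjusted p 0.0630 and 0.0546) and under scaling by matrix genes (0.875).

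Endothelial and macrophage genes mostly did not pass, with 22.7% and 17.6% called against 45.5% of all genes. Of 22 endothelial genes 17 did not pass, 4 were lower and 1 was higher, and without Patellar 1 the lower count was 7. Erg, an endothelial transcription factor, averaged 3.29 ± 0.433 against 10.9 ± 4.25 CPM (-1.72 ± 0.30, adjusted p = 0.00152). Of 17 macrophage genes 14 did not pass, 2 were lower and 1 was higher. The gene higher in both lists was Lyve1, a hyaluronan receptor of lymphatics and some macrophages, with 96.7, 180.7, 69.6 and 90.5 CPM in Supraspinatus and 16.6, 46.8, 48.2 and 27.1 CPM in Patellar (1.66 ± 0.39, adjusted p = 0.00687). Pericyte and smooth muscle genes split 4 higher to 6 lower of 16 (62.5% called). The channel subunits Abcc9 (3.91 ± 0.20, adjusted p = 5.83e-06) and Kcnj8 (1.30 ± 0.33, adjusted p = 0.0109) were higher, and the contractile genes Tagln (-2.44 ± 0.30, adjusted p = 0.000203) and Myh11 (-2.05 ± 0.44, adjusted p = 0.00440) were lower. Keratinocyte genes were lower for 3 of 11, 27.3% called and so under the share of all genes. Krt15, a basal keratin, had no count in any Supraspinatus library and 9.63, 0.120, 7.24 and 13.5 CPM in Patellar, at least 757-fold higher there against a floor of 3 counts over the group.

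Signalling genes went in both directions in each pathway, and the share called ran from 38.5% (hedgehog) to 56% (BMP and GDF), around the 45.5% of all genes. Of 25 BMP and GDF genes 8 were higher and 6 lower, of 19 TGF-beta genes 6 and 2, of 33 Wnt genes 9 and 9, of 21 FGF genes 4 and 5, of 13 hedgehog genes 1 and 4 and of 12 IGF genes 1 and 4. Medians lay between -0.43 and 0.23, near that of all genes. In the TGF-beta pathway, which maintains tendon cells, the signal carrier Smad3 measured 112.5, 97.3, 114.1 and 129.1 CPM in Supraspinatus and 34.1, 43.1, 44.3 and 39.7 CPM in Patellar (1.49 ± 0.14, adjusted p = 4.17e-05). The ligand Tgfb3 was lower (-1.01 ± 0.22, adjusted p = 0.00501), but not under scaling by matrix genes (0.408). Among Wnt genes the ligand Wnt9a averaged 52.8 ± 4.64 against 17.6 ± 1.55 CPM (1.59 ± 0.13, adjusted p = 2.18e-05). Its receptor family member Fzd7 averaged 70.5 ± 6.18 against 17.9 ± 4.56 CPM (1.97 ± 0.19, adjusted p = 6.05e-05). The secreted antagonist Sfrp2 was lower, at 3.89 ± 4.00 against 58.0 ± 48.3 CPM (-3.90 ± 0.94, adjusted p = 0.00784).

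Growth factor and adhesion genes differed in both directions. Igf1, a growth factor for tendon and muscle cells, measured 46.2, 63.1, 59.0 and 183.2 CPM in Supraspinatus and 393.7, 371.0, 267.0 and 339.7 CPM in Patellar (-1.96 ± 0.41, adjusted p = 0.00398). Its binding protein Igfbp4 averaged 55.9 ± 27.4 against 487.7 ± 136.3 CPM (-3.12 ± 0.38, adjusted p = 0.000210), and Igf2r, a clearance receptor, was higher in Supraspinatus (1.70 ± 0.14, adjusted p = 2.45e-05). Hhip, a hedgehog antagonist, measured 3.06, 40.1, 16.5 and 6.34 CPM against 0.389, 0.731, 0.0983 and 0.797 CPM (4.98 ± 0.89, adjusted p = 0.00166), a wide range within the shoulder libraries. Bmper, which modulates BMPs, averaged 2.82 ± 1.10 against 22.0 ± 16.5 CPM (-2.96 ± 0.59, adjusted p = 0.00295). Of 22 mechanosensing and adhesion genes 6 were higher and 4 lower, the same share called as among all genes. Piezo2, a stretch-gated channel, measured 15.1, 7.22, 10.03 and 16.1 CPM against 73.2, 51.9, 61.4 and 92.5 CPM (-2.53 ± 0.29, adjusted p = 0.000142). Panx1, a channel that releases ATP, was higher (4.81 ± 0.22, adjusted p = 5.08e-06). Of 21 chemokines and cytokines 1 was higher, Il33 (1.22 ± 0.33, adjusted p = 0.0131), and 7 were lower, among them Cxcl9 (-3.35 ± 0.44, adjusted p = 0.000324). This made 38.1% called, against 45.5% of all genes.

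Among housekeeping lists the ribosomal proteins had 76.9% of genes called. The stress, clock and mitotic lists had 50%, 47.4% and 45.8%, near the 45.5% of all genes. Cytoplasmic ribosomal protein genes were lower in Supraspinatus for 50 of 65 (median -0.80), but under scaling by matrix genes 1 was lower and 1 higher, so their direction rests on the scaling. Many of these genes have near-identical copies and their counts are uncertain. Of 30 stress and immediate-early genes 11 were higher and 4 lower. Hspb1, a small heat shock protein abundant in muscle, averaged 186.3 ± 37.4 against 25.4 ± 5.03 CPM (2.88 ± 0.21, adjusted p = 1.64e-05), and Fosb, an immediate-early factor, averaged 3.83 ± 1.78 against 19.5 ± 19.1 CPM (-2.35 ± 0.62, adjusted p = 0.0126). Clock genes were higher for 8 of 19 and lower for 1, and under scaling by matrix genes 15 were higher. Cry1 and Per2, repressors of the clock, were 24.5 ± 4.79 against 4.54 ± 2.20 CPM (2.42 ± 0.38, adjusted p = 0.000778) and 62.3 ± 15.01 against 15.4 ± 6.65 CPM (2.02 ± 0.32, adjusted p = 0.000848). Times of day of collection were not given in the sources used here. Mitotic genes were lower for 9 and higher for 2 of 24, with Mki67, a marker of dividing cells, at 0.989 ± 0.436 against 5.98 ± 3.17 CPM (-2.60 ± 0.50, adjusted p = 0.00247).

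**Figure D4:**
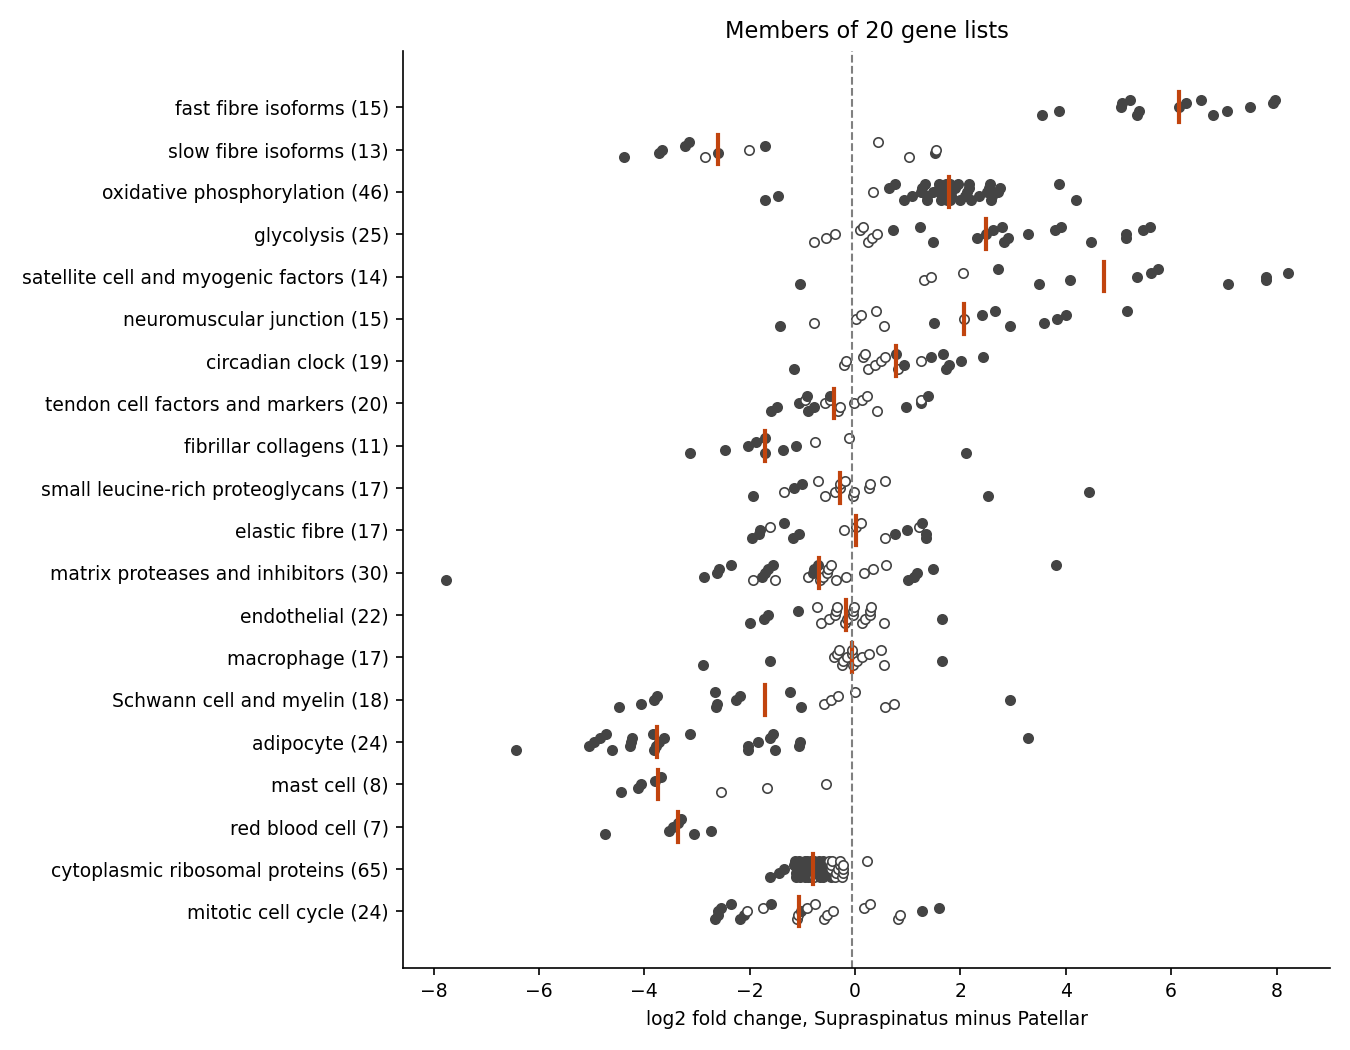
Log2 fold changes of the members of 20 gene lists, Supraspinatus minus Patellar, with the number tested in brackets. Filled points passed an adjusted p of 0.05, open points did not, bars are list medians and the dashed line is the median of all genes tested (-0.06). Fast fibre isoforms lie to the right and most slow ones to the left. Among the slow isoforms Pln, Myoz2, Casq2 and Atp2a2 lie to the right. Adipocyte and red blood cell genes lie almost wholly to the left.

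Outside the cell type and muscle lists, 12 genes in each direction were taken by the size of their difference among those that passed at a mean of at least 10 CPM without overlap. Mylk4, a myosin light chain kinase, measured 1098, 915.2, 1152 and 1074 CPM in Supraspinatus and 5.70, 1.24, 2.79 and 3.98 CPM in Patellar (8.28 ± 0.51, adjusted p = 7.65e-06). Nos1, the nitric oxide synthase of muscle and nerve, averaged 179.6 ± 49.98 against 0.741 ± 0.557 CPM (7.95 ± 0.59, adjusted p = 1.68e-05). Others of the 12 highest were Igfn1, a Z disc protein, Ano5, a membrane repair protein, and Lrtm2, with log2 fold changes of 8.66, 7.63 and 9.17. Among the 12 lowest, Krt17, a keratin of skin appendages, measured 0, 0.0600, 0.0332 and 0 CPM against 27.0, 8.14, 37.6 and 26.0 CPM (-10.04 ± 0.82, adjusted p = 2.56e-05). Mab21l2, a developmental regulator, measured 0.400, 0.216, 0.951 and 0.279 CPM against 35.1, 28.2, 34.5 and 45.5 CPM (-6.27 ± 0.48, adjusted p = 1.78e-05). Nnat, an imprinted gene also active in fat, averaged 2.49 ± 1.93 against 480.7 ± 200.5 CPM (-7.60 ± 0.65, adjusted p = 3.09e-05). Hcar1, Ffar2 and Adora1, receptors that adipocytes carry, were among these 12 with log2 fold changes of -5.69, -6.29 and -5.03.

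The forepaw flexor and Achilles tendons gave a second forelimb and hindlimb pair that shares no library with the first. In Flexor minus Achilles 6580 of 22472 genes passed (29.3%), and the difference of the pairs, fitted on all 16 libraries, passed for 8149 of 23754 genes (34.3%), above 0 for 4680 (19.7%) and below 0 for 3469 (14.6%). Of 20024 genes tested in both pairs 2491 passed in the same direction (12.4%), with 1093 higher (5.46%) and 1398 lower (6.98%) in both forelimb tendons, and 834 passed in opposite directions (4.17%). The genes that passed in both made up 36.6% of the proximal calls and 54.6% of the distal calls. Hoxc8, Hoxc9 and Hoxc10 were lower in both forelimb tendons, with distal log2 fold changes of -6.69, -7.93 and -8.47, and the difference between the pairs did not pass (adjusted p = 0.121, 0.911 and 0.692). For Tbx5 the distal gap was 7.29, and the pairs differed by -5.96 ± 0.34 (adjusted p = 1.08e-07). On the scale of all 16 libraries Tbx5 averaged 20.3 ± 2.45 CPM in Supraspinatus, 7.88 ± 0.961 in Patellar, 50.8 ± 5.31 in Flexor and 0.315 ± 0.151 in Achilles. The Patellar level lay between those of Supraspinatus and Achilles, without overlap with either.

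Pitx1 also had a wider distal gap (-6.43, difference 4.09, adjusted p = 4.53e-06), with 0.164 to 0.353 CPM in Flexor and 9.76 to 14.1 CPM in Supraspinatus on the 16-library scale. Tbx4 was higher in Flexor than in Achilles (0.64 ± 0.20, adjusted p = 0.0349), and the pairs differed (-2.84, adjusted p = 3.86e-05). Hoxc6 and Hoxc4 were lower in the forelimb in both pairs, by -1.73 and -5.51 and by -1.78 and -5.22, with differences of 3.78 and 3.44 (adjusted p = 3.95e-07 and 0.000121). Shox2 showed -2.33 and -4.03 (difference 1.70, adjusted p = 0.000118). Lhx9 and Mab21l2 were lower in Supraspinatus than in Patellar but higher in Flexor than in Achilles (2.07 and 1.94), and the pairs differed (-4.71 and -8.21, adjusted p = 5.88e-05 and 2.94e-07). Myh4 was higher in Flexor than in Achilles (4.65) and Myh7 was lower (-8.28), the same directions as in the proximal pair. The gap was larger in the proximal pair for Myh4 (difference 3.30, adjusted p = 0.00818) and in the distal pair for Myh7 (5.08, adjusted p = 0.00123).

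**Figure D5:**
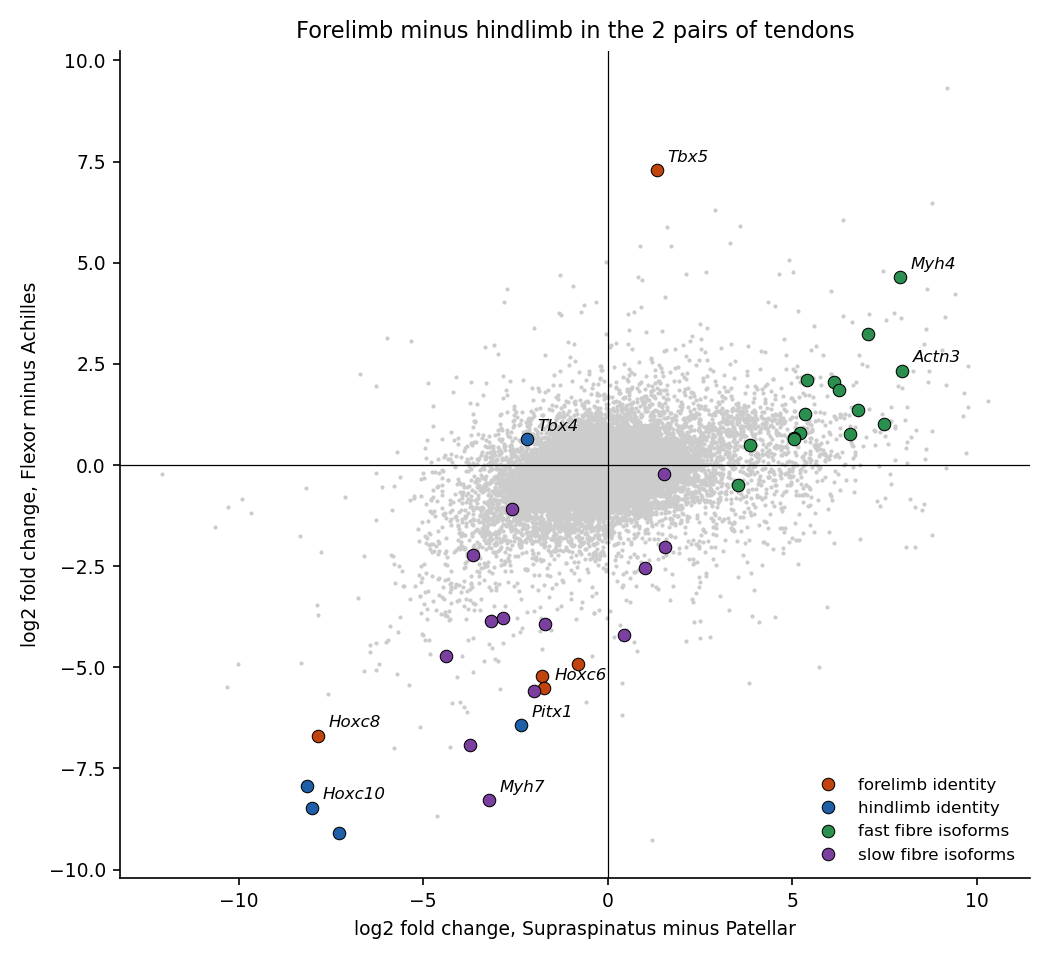
Log2 fold change of each gene in Supraspinatus minus Patellar (horizontal) against Flexor minus Achilles (vertical), for genes tested in both. Grey points are all genes, and coloured points are the forelimb, hindlimb, fast fibre and slow fibre lists. Hoxc8 and Hoxc10 lie far down on both axes, Tbx5 lies high on the vertical axis only, and slow isoforms lie below 0 on the vertical axis.

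Some genes were chosen because they passed in opposite directions in the 2 pairs. The tests of their difference between the pairs are thus no separate result. They included Amhr2, a receptor of the anti-Müllerian hormone, at 16.95 ± 3.09 against 2.99 ± 1.73 CPM in the proximal pair (2.49, and -2.90 in the distal pair, difference adjusted p = 6.22e-06). St3gal5, a sialyltransferase, showed 3.77 and -2.40 (difference adjusted p = 1.08e-06), and Bmper showed -2.96 and 2.75 (difference adjusted p = 3.51e-05). Other genes were chosen for large differences in the same direction in both pairs. Those higher in both forelimb tendons included Mss51, a muscle regulator of mitochondria, at 6.37 and 6.07, and Colec10, a collectin, at 4.91 and 5.07. Neither differed between the pairs beyond the threshold (adjusted p = 0.726 and 0.902), and nothing is read from this, given how they were chosen. Genes lower in both included Nnat (-7.60 and -5.65) and Hp, the plasma protein haptoglobin (-4.81 and -4.67).

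The authors' deposited table of their own Patellar against Supraspinatus comparison lists 13452 genes, and 8449 of them had an FDR under 0.05. Of those, 4414 were higher in Patellar and 4035 lower in the authors' deposited table. Among 6860 genes called both there and in the fit above, all 6860 had the same direction. Both rest on the same libraries, so the shared direction is no independent check of the differences.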

How the data were processed

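RNA of 8 tendon libraries was compared, 4 Supraspinatus and 4 Patellar, grouped by their labels, which number the libraries of each tendon as mice 1 to 4. RNA was extracted on small-scale columns with DNase I digestion, per the labels' protocols. The authors deposited whole-number read counts for 41204 genes, with no normalization, and HISAT2, FastQC and edgeR with build mm10 are named per the submitters' processing notes. The tool that made the counts, its strand setting and the annotation were not given in the sources used here. Antisense, overlapping and near-identical genes are therefore uncertain. The authors also deposited a table of log2 fold changes with p-values and FDR values, used here for its counts of genes and directions only.

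Counts were fitted in R 4.3.3 with edgeR 4.0.16 (filterByExpr, TMM, robust quasi-likelihood test, two-sided), with Benjamini-Hochberg adjustment over all genes tested and a threshold of 0.05. Standard errors are the log2 fold change over the square root of F. Flexor minus Achilles was fitted on its own 8 libraries, and the difference of the pairs on all 16. Shares of counts and log2 ratios were tested by exact permutation over the 70 assignments of 8 libraries. Whether equal mouse numbers mark 1 animal is not given, so no block was used and p-values measure the spread between these samples. A muscle covariate, other scalings, filters and tools (DESeq2 1.42.0, limma 3.58.1) and leaving out each library were the alternatives. The edgeR fit of Supraspinatus minus Patellar was tried on simulated counts with known changes, and the permutation test on values with a known answer. Differences in composition between the tendons were not simulated, so the scaling was not checked in this way.

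Members and the 47 lists were chosen with earlier results of these data known. Named genes were all tested limb and tendon genes, the 12 highest and 12 lowest by fold change (mean of at least 10 CPM, no overlap, no cell type or muscle markers), up to 4 genes per list and direction by adjusted p, the genes of the ratios, and the 8 genes in each direction, and 8 with opposite signs, of the 2 limb pairs (mean of at least 5 CPM). Not every gene so taken is described. Positions are from GENCODE for GRCm38 and promoters from RefSeq. Figures were drawn with matplotlib 3.10.9.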

Additional observations from a re-analysis of the deposited data

Results flagged for a closer look

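Among 308 groups of 4 values examined for the genes, shares and ratios named, 21 held a value far from the other 3 by Dixon's criterion (6.82%, where chance gives about 1 in 20). In Patellar 1 these were Ache at 1.53 CPM, Cox8b at 143.0 CPM, Myh7 at 200.6 CPM, Tnnc1 at 222.6 CPM and Prg4 at 1938 CPM, and brown fat genes at 0.0240% of counts, all above the other 3 Patellar libraries. In Supraspinatus 2 the adipocyte share (0.404%), the macrophage share (0.211%) and the mast cell share (0.000800%) stood above the other shoulder libraries, with Mcpt4 at 1.24 CPM and Cox8a at 75.8 CPM, while Chad stood below them at 935.1 CPM. In Supraspinatus 4 Igf1 (183.2 CPM), Kera (770.2 CPM), Col2a1 (4.73 CPM) and Scd1 (309.1 CPM) were far above and Myh4 (22330 CPM) below the other 3. Single values were Myh2 at 1811 CPM (high) and Shox2 at 4.76 CPM (low) in Supraspinatus 1, Fbln2 at 831.7 CPM (high) in Supraspinatus 3 and Erbb3 at 5.13 CPM (high) in Patellar 2. No value of Patellar 3 was marked, although that library stood apart over all genes.

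Of 20 genes described in both limb pairs 14 had a forelimb minus hindlimb difference that itself differed between the proximal and the distal pair in edgeR's test on all 16 libraries, where 34.3% of all genes passed. Some of the 20 were chosen for their directions in the pairs, so nothing is read from this count. The proximal minus distal difference on the log2 scale was -5.96 for Tbx5, 4.09 for Pitx1, -2.84 for Tbx4, 3.44 for Hoxc4, 3.78 for Hoxc6 and 1.70 for Shox2. It was -4.71 for Lhx9, -8.21 for Mab21l2, 3.30 for Myh4, 5.08 for Myh7 and -1.95 for Nnat. It was 5.40 for Amhr2, 6.17 for St3gal5 and -5.71 for Bmper, which were chosen for opposite signs in the pairs.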

How the results depend on the processing

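The 9260 genes called became 6022 at a mean of at least 5 CPM and 2027 with the muscle covariate. They ranged from 6399 to 12651 under the other settings, with 11318 in DESeq2 and 9779 in limma, and from 7535 to 10658 without single libraries. Over genes tested in both, the median moved by 0.71 under scaling by matrix genes, -0.17 at a mean of at least 5 CPM, -0.12 with the rRNA-like list left out and libraries thinned, and 0.11 with no filter. Flexor minus Achilles calls ranged from 4783 to 7464 and those of the difference from 7200 to 9194 without single libraries. Cell type shares that passed numbered 0 to 11 without single libraries, and 12 with the total free of rRNA-like, mitochondrial and haemoglobin counts. They numbered 0 with muscle fibre genes left out of the other lists, an alternative added after the values were seen, where the difference in the share of pericyte and smooth muscle genes turned to -0.0353 points. The rRNA-like difference ranged from -31.95 to -22.35 points and the ratios that passed from 0 to 7. With the mouse number as a replicate block 7919, 5474 and 7593 genes were called in the 3 comparisons, and sign flips within numbers passed 0 ratios (smallest p possible 0.125). Same-number libraries deviated together with correlations of -0.006 to 0.055, and 1 of 4 numbers matched its own partner best, which is under the level taken here as pairing and does not show whether equal numbers mark the same animal. The block ended the calls of Prg4 (adjusted p = 0.0510) and Col2a1. Of 116 named genes called, 52 kept call and direction under every setting that gave them a value. Some settings gave no value for every gene, with 107 of the 116 at a mean of at least 5 CPM. Thinned libraries gave 113 and DESeq2 115. With the muscle covariate 51 lost the call and 8 changed sign, namely Bmper (0.93), Col2a1 (1.17), Cox7a1 (-0.60), Cox8b (-0.75), Eln (1.11), Il33 (-0.29), Myh2 (-2.14) and Sfrp2 (1.83), none of them past the threshold there. The cause was not tested. That covariate moved 73 of 92 list counts by over 1.5 times, scaling by matrix genes 54 and leaving out single libraries 32. Depth limits the rare genes, and Hoxc11 rests on 55 counts in all.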

Other observations

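2 developmental transcription factors outside the lists were chosen after their values were seen. Tbx15, a T-box factor of the shoulder blade and of fast muscle fibres, measured 361.1, 339.3, 364.2 and 372.1 CPM in Supraspinatus and 59.5, 52.9, 44.1 and 60.6 CPM in Patellar (log2 fold change 2.73 ± 0.14, edgeR adjusted p = 6.36e-06), and 0.89 in Flexor minus Achilles. Hoxb9, a trunk level Hox gene, measured 0.00976, 0, 0 and 0.0517 CPM in Supraspinatus and 1.53, 1.82, 1.74 and 1.77 CPM in Patellar (-6.61 ± 0.84, adjusted p = 0.000261). Neither gene overlapped between the tendons. Like Hoxc8, Hoxc9 and Hoxc10, Hoxb9 was near 0 in every Supraspinatus library.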
